A study of Mus musculus with 6 samples.

Results

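Broad unmethylated valleys are stretches of several kilobases in which DNA methylation stays low in an otherwise highly methylated genome. In the lung endothelial cells measured here, 606 such valleys were found, made up of 4326 of 1683697 windows of 1 kb (0.257%). A valley was a run of 5 or more adjoining windows, each with a mean over the 6 samples under 15% and no sample above 30%. Runs over Hox genes were left out (20 runs, 184 windows). Because the rule uses the levels of these samples, low levels inside valleys are a description and are not tested. The difference between ages was not part of the rule, apart from the 30% limit on any sample, which bounds how far a valley window can differ.

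The cells were lung endothelial cells sorted by flow cytometry from wild-type mice, 3 samples titled mAdu and 3 titled Aged, compared at 8 and 18 months. The design names both ages without tying them to titles, and the older age was assigned to the Aged samples. Sorting markers, sex, strain and the number of animals are not in the labels, so p-values reflect sample-to-sample spread that may be only technical. Methylation was read by tagmentation-based whole-genome bisulfite sequencing, in which a transposase fragments a small amount of DNA (30 ng here) before bisulfite converts unmethylated cytosines. The table holds the authors' mean level per 1-kb window on the 19 autosomes, with no read coverage, so depth is unknown and no counting error can be given.

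Most CpG sites of a mammalian genome are methylated, and short unmethylated islands mark the promoters of widely used genes. Longer valleys are known from many tissues around developmental regulators, where Polycomb complexes often keep the gene silent with repressive histone marks. Broad unmethylated stretches are also known over highly used genes of a cell's own identity, so both kinds can be met in endothelium. Histone marks and transcripts were not analysed here.

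Sequence from RefSeq (GRCm38.p6, the coordinates of mm10) shows what kinds of gene start lie inside valleys. The promoters below run from 250 bases before to 50 after a start, 5′ to 3′ on the gene's strand, with each CpG in capitals. Pax6 and Uncx, which encode homeodomain transcription factors of the eye and brain and of the somites, are shown because their valleys were the longest. Egfl7, a secreted regulator of vessel formation, has 3 starts in its valley, of which the left and middle are poor in CpG. Erg, an ETS transcription factor that maintains endothelial identity, has 1 CpG-poor start inside its valley and other starts outside any valley.
Pax6 (chr2:105668646-105668945, plus strand): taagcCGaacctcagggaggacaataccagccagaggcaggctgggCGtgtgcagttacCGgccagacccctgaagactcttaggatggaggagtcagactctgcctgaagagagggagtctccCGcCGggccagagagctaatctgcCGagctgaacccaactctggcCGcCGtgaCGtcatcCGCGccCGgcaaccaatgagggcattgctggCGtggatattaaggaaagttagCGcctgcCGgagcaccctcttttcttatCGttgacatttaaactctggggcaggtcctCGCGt
Uncx (chr5:139543648-139543947, plus strand): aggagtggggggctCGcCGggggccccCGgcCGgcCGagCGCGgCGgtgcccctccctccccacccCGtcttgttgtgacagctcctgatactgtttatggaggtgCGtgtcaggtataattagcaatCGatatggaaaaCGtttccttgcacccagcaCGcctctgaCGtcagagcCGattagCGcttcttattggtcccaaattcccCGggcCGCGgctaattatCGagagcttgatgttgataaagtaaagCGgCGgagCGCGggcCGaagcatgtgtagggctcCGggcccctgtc
Egfl7, left start (chr2:26580833-26581132, plus strand): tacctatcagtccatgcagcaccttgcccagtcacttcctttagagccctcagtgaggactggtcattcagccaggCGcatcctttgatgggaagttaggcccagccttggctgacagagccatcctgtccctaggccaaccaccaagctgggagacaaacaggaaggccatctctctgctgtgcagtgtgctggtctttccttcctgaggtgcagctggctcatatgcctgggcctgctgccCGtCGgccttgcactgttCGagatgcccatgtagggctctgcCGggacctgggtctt
Egfl7, middle start (chr2:26583615-26583914, plus strand): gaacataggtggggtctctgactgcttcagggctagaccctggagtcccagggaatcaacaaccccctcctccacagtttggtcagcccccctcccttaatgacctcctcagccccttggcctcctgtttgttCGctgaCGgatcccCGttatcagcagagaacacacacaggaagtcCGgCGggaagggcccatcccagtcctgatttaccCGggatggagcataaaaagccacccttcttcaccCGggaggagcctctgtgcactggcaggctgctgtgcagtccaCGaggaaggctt
Egfl7, right start (chr2:26586386-26586685, plus strand): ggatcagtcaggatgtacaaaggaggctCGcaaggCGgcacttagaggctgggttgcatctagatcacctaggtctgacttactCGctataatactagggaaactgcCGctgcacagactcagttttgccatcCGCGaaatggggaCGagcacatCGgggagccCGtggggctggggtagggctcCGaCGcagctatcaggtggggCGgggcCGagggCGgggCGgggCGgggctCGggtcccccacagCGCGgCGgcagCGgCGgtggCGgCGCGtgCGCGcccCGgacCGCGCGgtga
Erg, start in the valley (chr16:95459299-95459598, minus strand): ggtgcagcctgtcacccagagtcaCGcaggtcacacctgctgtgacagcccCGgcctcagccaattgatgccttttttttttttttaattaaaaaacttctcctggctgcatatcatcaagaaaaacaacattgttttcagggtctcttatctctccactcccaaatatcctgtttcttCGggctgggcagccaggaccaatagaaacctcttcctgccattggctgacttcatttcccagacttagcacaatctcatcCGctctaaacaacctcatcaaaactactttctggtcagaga
Erg, start outside valleys (chr16:95586544-95586843, minus strand): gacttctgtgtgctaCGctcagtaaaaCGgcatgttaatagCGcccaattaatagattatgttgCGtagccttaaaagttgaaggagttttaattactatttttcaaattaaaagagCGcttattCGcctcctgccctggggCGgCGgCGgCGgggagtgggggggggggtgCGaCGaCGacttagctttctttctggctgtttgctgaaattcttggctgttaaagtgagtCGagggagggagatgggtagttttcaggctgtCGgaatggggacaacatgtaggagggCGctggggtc
Erg, methylated start (chr16:95530316-95530615, minus strand): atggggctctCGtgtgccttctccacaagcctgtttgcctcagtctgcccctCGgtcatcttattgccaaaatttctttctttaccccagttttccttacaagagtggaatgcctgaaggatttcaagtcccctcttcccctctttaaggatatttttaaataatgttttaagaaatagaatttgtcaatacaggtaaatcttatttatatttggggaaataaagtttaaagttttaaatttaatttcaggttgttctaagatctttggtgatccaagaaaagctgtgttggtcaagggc

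The Pax6 promoter shown holds 18 CpG sites, a further Pax6 start in the valley 16, and that of Uncx 26. The left, middle and right starts of Egfl7 hold 5, 8 and 31. The middle promoter, with few CpG sites, was thus also within an unmethylated stretch. The left start lay 0.082 kb inside the valley edge. Its promoter reached into the adjoining window outside, at 42.4% in mAdu and 43.0% in aged. The window around the left start was at 14.4% ± 2.21 in mAdu and 12.4% ± 0.456 in aged (SD, n = 3 in each group, as in all such values below), that around the middle start at 2.84% ± 0.757 and 2.05% ± 1.86, and that around the right start at 1.10% ± 0.902 and 2.48% ± 2.07. The start of Erg inside its valley has 4 CpG sites, and its window was at 4.68% ± 2.36 and 2.99% ± 2.65. Of the Erg starts outside, that with 16 CpG sites was at 18.3% ± 1.98 and 15.9% ± 2.20, and that with 2 was methylated, at 75.4% ± 4.20 and 82.1% ± 2.61.

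MicroRNAs lay in 8 valleys, and several are known from endothelium or brain. Of 919 autosomal hairpins in the RefSeq table, 11 overlapped a valley. The sequences shown are those of valleys around known regulators, with the seed (bases 2 to 8) in capitals: miR-126, the endothelial microRNA inside Egfl7, which is known to support VEGF signalling; miR-9 from Mir9-3, a neural microRNA; and miR-132 with miR-212, a pair beside Hic1.
miR-126a-3p: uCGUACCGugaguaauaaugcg
miR-9-5p: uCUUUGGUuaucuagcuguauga
miR-9-3p: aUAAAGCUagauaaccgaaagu
miR-132-3p: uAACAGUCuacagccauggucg
miR-212-3p: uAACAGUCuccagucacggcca

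The last pair shares the seed AACAGUC. The valley of Mir126a and Egfl7 (chromosome 2, 26581001 to 26592000) was 11 kb long at a mean of 4.64%. That of Mir9-3 (chromosome 7, 79496001 to 79511000) was 15 kb at 5.70% and overlapped no protein-coding gene, and that of Mir132 and Mir212 with Hic1 was 6 kb at 3.84%. Other valleys held Mir129-2 at 6 kb and Mir1247, beside the imprinted gene Dio3, at 7 kb.

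Valleys were short for the most part, with a tail of longer ones. The median length was 6 kb, 232 valleys had the minimum of 5 kb and 81 reached 10 kb, of which 48 held a gene of the transcription factor families described further on. The longest of the 606 was that of Uncx (chromosome 5, 139535001 to 139560000), 25 kb at a mean over samples of 4.84%. Pax6 followed with 24 kb (chromosome 2, 105666001 to 105690000, 4.02%), then Barhl2, a neural homeobox gene, with 23 kb (5.95%) and the pair Dlx1 and Dlx2, homeobox genes of forebrain and jaw, with 23 kb (5.96%).

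**Figure D1:**
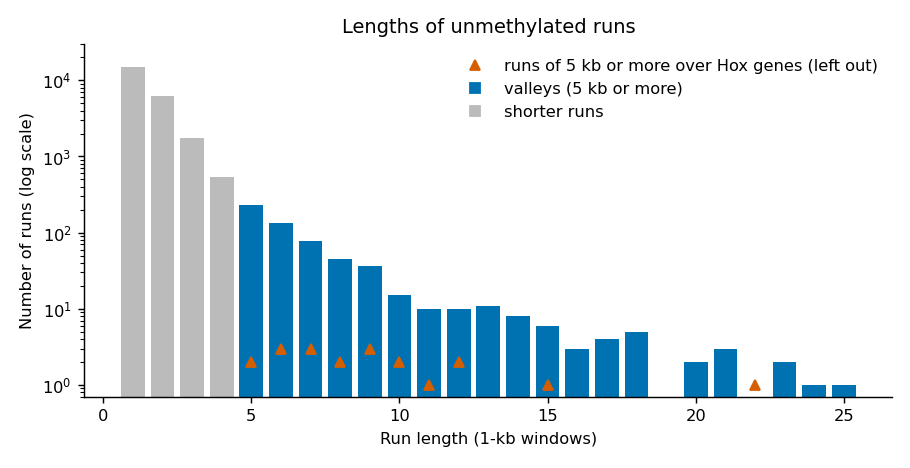
Number of runs (y axis, log scale) by run length in 1-kb windows (x axis). Grey bars are runs of 1 to 4 windows, blue bars the 606 valleys, and orange triangles the 20 runs over Hox genes that were left out. Counts fall steadily with length, from 232 valleys of 5 kb to a single valley of 25 kb.

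Seen sample by sample, the longest valleys were low in every sample. The valley of Uncx was at 5.62%, 4.32% and 3.91% in mAdu replicates 1 to 3 and at 4.81%, 4.76% and 5.63% in aged replicates 1 to 3. These groups overlapped. The valley of Pax6 was at 4.36%, 3.80% and 4.29% in mAdu and 3.88%, 3.96% and 3.84% in aged, again with overlap.

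Foxf1 stands among these with a different background. It encodes a forkhead factor that lung endothelium and mesenchyme are known to need, and it shared a 21-kb valley with the long non-coding RNA Fendrr and the edge of Mthfsd (chromosome 8, 121072001 to 121093000). This valley was at 3.10%, 3.22% and 2.505% in mAdu and 2.91%, 2.62% and 3.13% in aged, so the groups overlapped. Foxc2, a forkhead factor of lymphatic valves, had a valley of its own close by (121113001 to 121119000), of 6 kb at 5.28%.

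The rest of the 15 longest were, from 21 to 17 kb, the valleys of Six3 (2.98%), Pax7 (3.44%), Skor1 (3.95%), Zic4 (4.42%), Tfap2b (4.33%), Hmx3 with Hmx2 (4.46%), Onecut1 (4.54%), Foxa1 (5.43%), Lbx1 (5.51%) and Lhx5 (2.19%). All but Skor1, a transcriptional corepressor of the brain and spinal cord, encode DNA-binding transcription factors, of brain, muscle, kidney, gut or inner ear among other organs. In the Dlx1 and Dlx2 valley the mAdu samples were close together, at 5.67%, 5.61% and 5.65%, and the aged samples at 6.42%, 5.74% and 6.69%. Every aged sample lay above every mAdu sample there, with a difference of 0.642 points (SE 0.426, limma adjusted p = 0.975). The same order was found at Pax7 (0.519 points) and the reverse at Skor1 (-0.463 points), and neither passed. Of all valleys and tiles, 4.49% had every aged sample above every mAdu sample and 5.62% every aged sample below.

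The rule's limits are shown by the runs nearest to them. Just inside, the valleys of 5 windows with the highest means were in St3gal6, a sialyltransferase gene (10.97%), beside Irx5 (8.69%), beside Evx1 (8.61%), at Barhl1 (8.43%) and in Rin2 (8.43%). Just outside, the runs of 4 windows with the lowest means lay at Ssbp4 (0.491%), Lzts2 (0.511%), Git2 with Ankrd13a (0.586%), Ing1 (0.603%) and Adamts6 (0.653%). Both sets were picked for their levels, so the gap between them is no result.

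Transcription factor genes made up a large share of what the valleys held. Of 20626 autosomal protein-coding genes outside the Hox families, 562 (2.72%) overlapped a valley. For 17 families of developmental transcription factors, taken by symbol, 148 of 304 genes did (48.7%), against 414 of 20322 other genes (2.04%). Counting only genes with an edge in a valley, so that long genes have no advantage, gave 143 (47.0%) and 346 (1.70%). These shares describe genes chosen by their methylation, and no test was applied to them.

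Families differed in how much of them lay in valleys. Among homeobox genes, 5 of 6 Dlx genes were held, 7 of 9 Pax genes (Pax6, Pax7, Pax2 and Pax9 with the longest valleys), 8 of 12 LIM genes (Lhx5, Lhx4, Lmx1b, Lhx8), 9 of 14 NK genes (Nkx3-2, Nkx2-1, Nkx2-2, Nkx2-5), 4 of 6 genes of the Six3 family, 4 of 6 Iroquois genes and 43 of 73 others (Uncx, Barhl2, Hmx2, Hmx3). Zinc finger and AP-2 families were similar, with 3 of 4 Zic genes, 4 of 5 GATA genes (Gata2, Gata3, Gata4, Gata6) and 4 of 5 AP-2 genes. Lower shares were found for Sox (8 of 18), POU (6 of 14), Klf (6 of 16), T-box (5 of 15), bHLH (18 of 55) and forkhead genes (12 of 41). Of the orphan receptors Nr2f and Nr2e, 2 of 5 were held (Nr2e1 and Nr2f1).

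**Figure D2:**
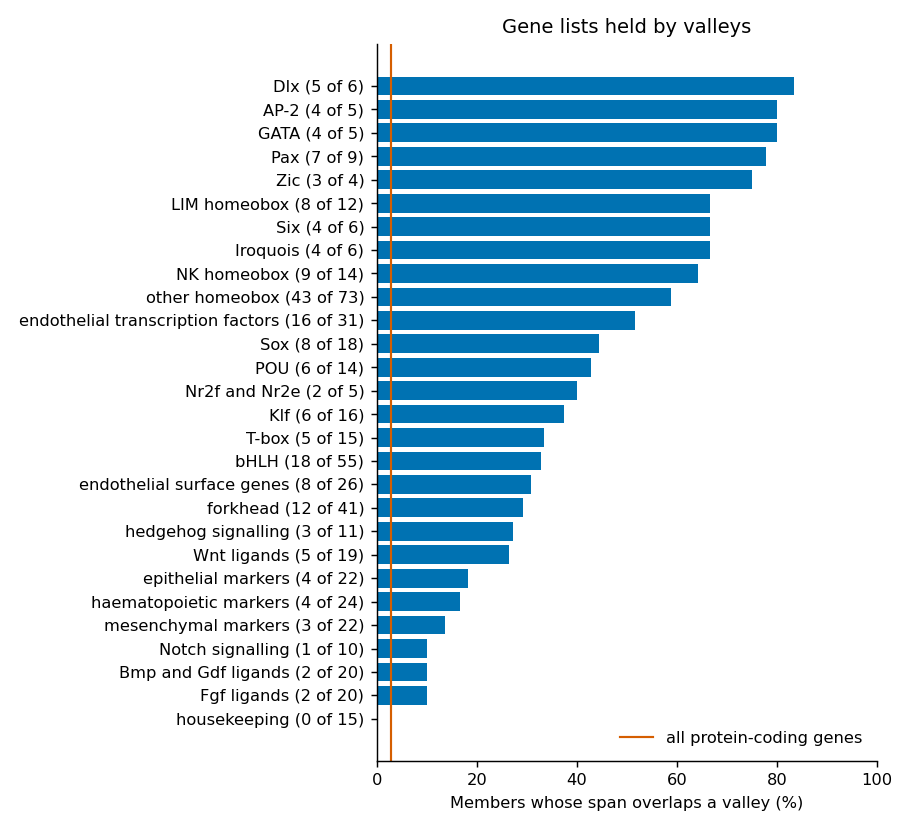
Share of each gene list whose span overlaps a valley (x axis, percent), with members held and members on autosomes in brackets. The orange line marks all protein-coding genes, at 2.72%. Homeobox, AP-2, GATA, Pax and Zic families lie far to the right. None of 15 housekeeping genes is held, a list too short to tell from the line.

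Some genes of secreted signals and their receptors also lay in valleys. They were 5 of 19 Wnt ligands (Wnt10a, Wnt11, Wnt1, Wnt3a, Wnt6), 2 of 20 Fgf ligands (Fgf9, Fgf11), 2 of 20 Bmp and Gdf ligands (Bmp4, Gdf6), 3 of 11 hedgehog genes (the ligands Shh and Dhh and the receptor Ptch1) and, of 10 Notch genes, the receptor Notch1. The valley of Shh was 10 kb at 3.59% and that of Ptch1 was 7 kb at 1.42%. Of 15 housekeeping genes such as Actb and Gapdh none overlapped a valley, against 2.72% of all protein-coding genes. So short a list cannot show a lower share, and Actg1 and Ptma, outside the list, did overlap valleys. An edge in a shorter run of 2 to 4 kb was found for 11 of the 15, and for 6729 of all 20626 genes.

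Endothelial genes formed a further part of the valleys. Of 31 endothelial transcription factors 16 were held (51.6%), and of 26 endothelial surface genes 8 (30.8%), in 30 valleys together. The first share was near the 48.7% of the 17 transcription factor families, and all protein-coding genes stood at 2.72%. Some of these genes are also in the families above, and 11 of the 30 valleys count in both. Epas1, the hypoxia-inducible factor HIF-2 alpha, was crossed by 4 valleys of 13, 8, 8 and 5 kb, 34 kb of its 79.5 kb. No other protein-coding gene had 4 valleys. The longest of the 4 (chromosome 17, 86753001 to 86766000) had 4.14%, 3.64% and 3.65% in the mAdu samples and 3.57%, 3.96% and 4.69% in aged, and the groups overlapped.

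Acvrl1, the BMP9 receptor ALK1 that is mutated in hereditary telangiectasia, had 13 kb (chromosome 15, 101128001 to 101141000). Its samples were at 2.57%, 2.28% and 2.36% in mAdu and 1.31%, 2.43% and 2.02% in aged. Cdh5, the endothelial cadherin of adherens junctions, had 9 kb (chromosome 8, 104101001 to 104110000) at 4.03%, 4.74% and 4.23% in mAdu and 3.90%, 4.46% and 4.19% in aged. In both valleys the groups overlapped.

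Of the 30 valleys with an endothelial gene, 1 (3.33%) had every aged sample above every mAdu sample, against 4.49% of all valleys and tiles, and 0 had every aged sample below, against 5.62%. That valley, of Ets1, an ETS factor of vessels, was at 2.62%, 3.202% and 3.01% in mAdu and 3.204%, 4.18% and 4.54% in aged, a difference of 1.03 points (limma adjusted p = 0.975). The second valley of Tbx3, a T-box factor, was at 5.77%, 4.46% and 5.92% in mAdu and 8.67%, 10.6% and 5.89% in aged, where aged replicate 3 lay among the mAdu samples.

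Further surface genes with valleys were S1pr1, a sphingosine phosphate receptor (7 kb, 4.21%), Flt1 and Kdr, the VEGF receptors (6 kb at 4.08% and 5 kb at 2.82%), Esam, a junction adhesion molecule (5 kb, 1.04%), and Calcrl, the adrenomedullin receptor, with 2 valleys of 6 and 5 kb (3.02% and 3.72%). Among transcription factors Erg had 11 kb (2.89%), Gata2 11 kb (2.45%), Ets1 10 kb (3.46%), Klf4 8 kb (4.78%), Klf2 7 kb (3.41%), Sox17 7 kb (3.79%), Elk3 6 kb (2.16%), Tal1 5 kb (0.771%), Fli1 5 kb (4.18%) and Sox7 5 kb (3.35%). Prox1, the master factor of lymphatic endothelium, also had 8 kb (3.52%). Among the valleys with these genes, those of Tal1 and Esam had the lowest levels. Other genes of the endothelial surface list, among them Pecam1, Tek, Tie1, Eng, Vwf, Nos3 and Cldn5, overlapped no valley.

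**Figure D3:**
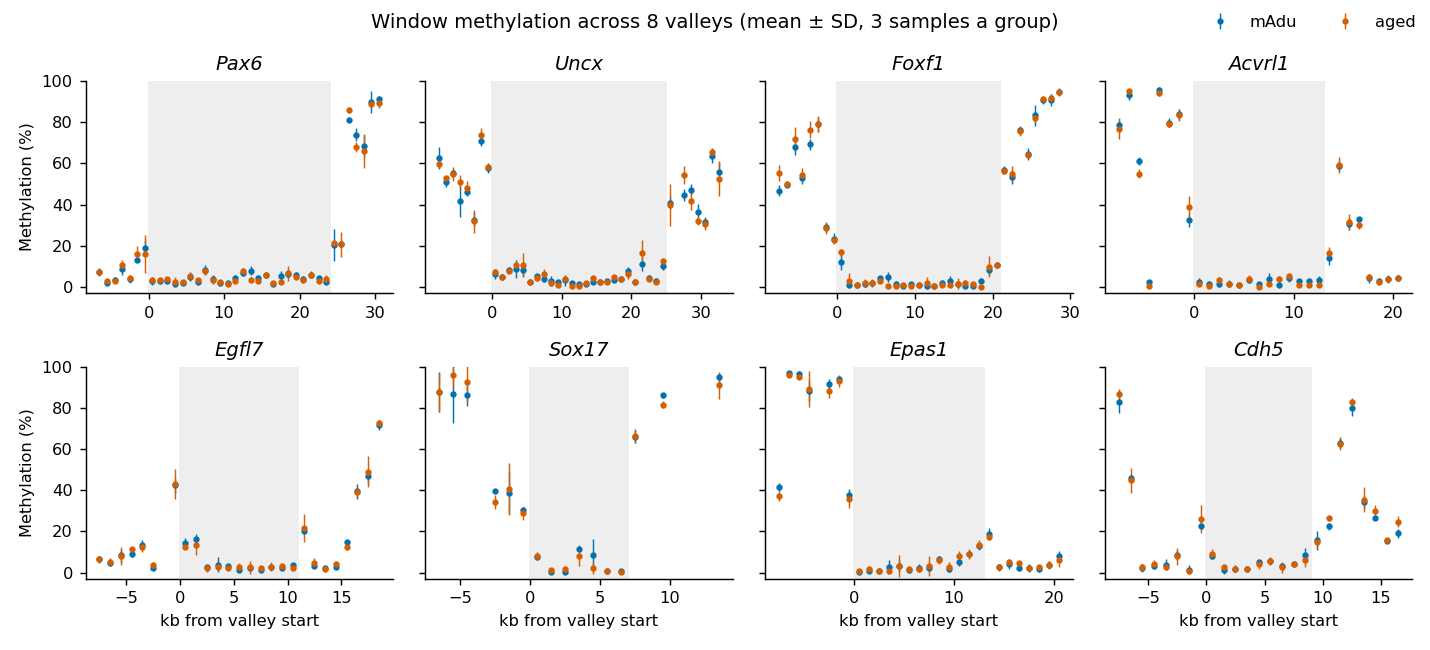
Methylation of each 1-kb window (y axis, percent; mean ± SD of 3 samples a group) against the distance in kb from the valley start (x axis), for valleys of 8 genes. Grey marks the valley, blue is mAdu and orange aged. Within the grey spans most windows are near the floor and the highest group means are 16.5% in mAdu and 16.8% in aged, while windows beyond the edges are higher, though Pax6, Egfl7, Epas1, Acvrl1 and Cdh5 have further low windows within 8 kb.

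The gene content was checked against the sorted cell type. Of markers of other lung cells, 4 of 22 epithelial, 4 of 24 haematopoietic and 3 of 22 mesenchymal genes overlapped a valley. These shares of 18.2%, 16.7% and 13.6% lay above the 2.72% of all protein-coding genes and below the 30.8% of endothelial surface genes. The lists are short, and the differences were not tested. Among those held were the transcription factor genes Foxa1, Nkx2-1, Foxa2, Runx3, Gfi1, Pax5, Bcl11b, Wt1 and Twist1, and the receptor gene Pdgfra. Surfactant genes, Epcam, Ptprc and the fibrillar collagen genes Col1a1, Col1a2 and Col3a1 overlapped no valley. The valley of Nkx2-1, the lung epithelial and thyroid factor, was 14 kb at 4.41%. The rule keeps the level low in every valley, so this level does not tell cell types apart.

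Valleys of transcription factors were on the whole longer, with less methylated surroundings, which is given as a description without a test. The 161 valleys holding a gene of the 17 families had a median length of 8 kb, and 29.8% of them reached 10 kb. The 426 with neither a family nor an endothelial gene had a median of 6 kb, and 6.57% reached 10 kb. In the 3 kb on each side, mean methylation was 39.5% in mAdu and 39.8% in aged for the first kind, 53.4% and 53.6% for the second, and 44.8% and 45.1% for valleys with an endothelial gene. Median levels inside were 4.57%, 3.94% and 3.62%.

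Valleys had sharp edges on average. The outermost window inside averaged 5.88% in mAdu samples and 6.09% in aged samples. Windows further in lay between 3.37% and 4.59%. The adjoining window outside lay between 43.4% and 44.1% in the 6 samples, and at 10 kb the level was 65.1% for each group, still below the autosomal mean of 73.5% in mAdu and 73.4% in aged. The step at the edge is partly built in by the limits of the rule. Of 1212 valley ends 157 (13.0%) met a window absent from the table, where the true edge could lie further out.

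**Figure D4:**
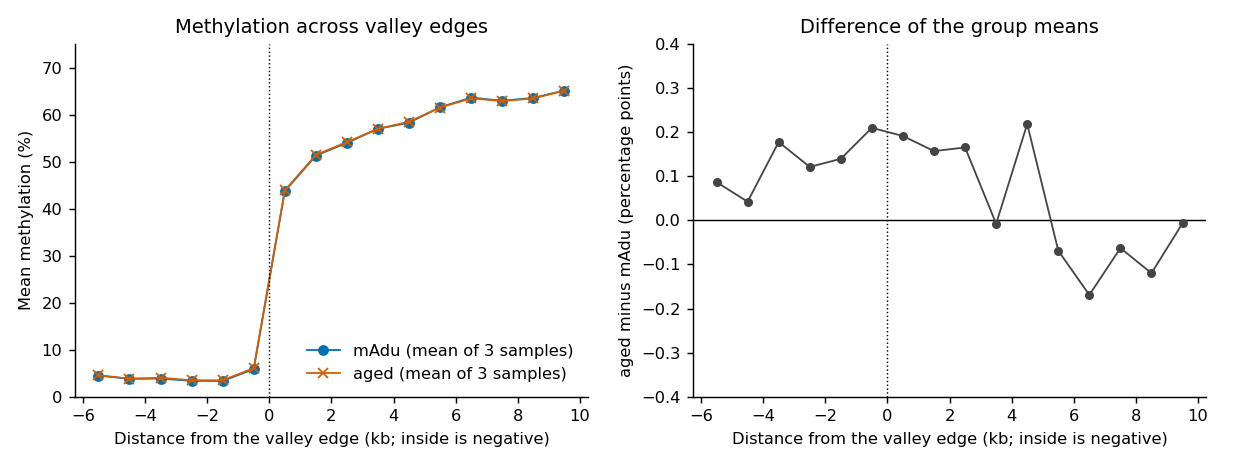
Left, mean methylation (y axis, percent) by distance from the valley edge in kb (x axis, negative inside), averaged over the windows of all valleys. Right, the difference of the group means in percentage points. The level steps from about 6% to about 44% at the edge. The difference is above 0 at each of the 6 inside distances, at most 0.210 points, and takes both signs beyond 3 kb outside.

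Valleys also came in chains. No more than 10 kb separated the members of 54 chains, which together held 116 valleys. Around Zic1 and Zic4, paired zinc finger genes of the cerebellum, 4 valleys made up 44 kb of a 57-kb stretch. Tfap2a, an AP-2 gene of neural crest, had 31 kb in 3 valleys, and Dlx6 with Dlx5, Sox2 and Hand2 also had 3 valleys each.

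Gene starts lay towards the upstream side of valleys. The RefSeq promoter table placed 451 protein-coding starts inside valleys, 2.25% of 20085. The median start was 38.4% of the way from the upstream end, and 291 starts (64.5%) were in the upstream part before the middle. Shorter runs of 2 to 4 kb gave 65.6%, so this position was not particular to valleys. Promoters in valleys had a median of 21 CpG sites in 300 bases (quartiles 13 and 29), against 25 in shorter runs and 3 outside any run. By gene content the median was 19 in transcription factor valleys, 23.5 in endothelial valleys and 21 in valleys of neither kind. With 10 CpG sites or fewer were 82 valley promoters (18.2%), the CpG-poor starts of Egfl7 and Erg shown above among them.

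Short motifs were counted in these 300-base promoters on both strands, as letters only. The ETS-type word CCGGAAG was found in 27 of 451 valley promoters (5.99%), in 16.4% of promoters in shorter runs and in 11.9% of all. The word TATAAA was in 10.9%, 5.46% and 12.7%, and the GC box word GGGCGG in 66.7%, 73.2% and 47.0%. None of these words contains another, and no factor's binding was measured.

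Some valleys held no protein-coding gene. There were 65, of which 42 overlapped a non-coding or predicted gene and 23 none. Several of the 23 lay near amylase or vomeronasal receptor genes and held the uncertain windows near 0% described below. After the Mir9-3 valley the longest lay 5088 bp from Cbx8, a Polycomb subunit gene (chromosome 11, 119046001 to 119059000, 13 kb, 5.25%), 1791 bp from the neural factor gene Pou3f3 (13 kb, 6.71%) and 1325 bp from Nkx2-3, a homeobox gene of gut and spleen vessels (12 kb, 5.73%).

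Another of these, a 10-kb valley beside the pancreatic amylase genes, differs in kind. It was 1 of 8 valleys with windows under 0.01% in at least 1 sample, 60 windows in all, at the amylase genes Amy2a2, Amy2a3 and Amy2a4 on chromosome 3 and at the vomeronasal receptor genes Vmn1r63 and Vmn1r135 on chromosome 7. In 4 of the amylase valleys every sample is listed at 0. Both gene groups belong to families of related genes, and read coverage there is unknown, so their values are uncertain. The valley near Vmn1r135 had the largest spread of all 606, with 14.8% in aged replicate 1 and under 0.01% in 4 other samples. Results with and without these windows are given among the processing alternatives.

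With age, no valley and no valley window passed. The comparison asks whether valleys of the lung endothelium differ between 8 and 18 months. Valley means were fitted with limma together with tiles of 5 windows over the rest of the table, and 0 of 606 valleys passed an adjusted p of 0.05 (0.00892% of all valleys and tiles did). At an unadjusted p under 0.05 there were 24 valleys (3.96%), against 4.7% of all, and the smallest adjusted p was 0.975. Window by window 0 of 4326 valley windows and 0 of 9655 windows within 10 kb of a valley passed (0.0211% of all windows), with 175 (4.05%) and 427 (4.42%) at an unadjusted p under 0.05, against 4.67% of all. For 427 valleys (70.5%) both ends of the 95% interval were under 2 points in size, and for the others the interval reached past 2 points.

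Although nothing passed, valley levels lay slightly higher in aged samples, by a small fraction of a point. Over all valley windows the means were 4.23%, 4.22% and 4.15% in mAdu and 4.28%, 4.37% and 4.39% in aged. Each aged sample lay above each mAdu sample. The mean was higher in aged in 357 of 606 valleys (58.9%) and in 47.6% of all valleys and tiles. The median difference was 0.125 points, against -0.0913 for all. Tiles are highly methylated on average, so windows of other low runs are closer in level. Of valley windows 54.8% were higher in aged, and of all windows 48.9%. The share was 52.7% in runs over Hox genes, 51.7% in shorter runs and 51.3% in single low windows. In 49 valleys (8.09%) every aged sample lay above every mAdu sample, against 4.49% of all valleys and tiles, and in 20 (3.30%) every aged sample lay below, against 5.62%.

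Among the 161 valleys with a gene of the 17 families, the aged mean was the higher in 110 (68.3%). Their median difference was 0.261 points, and 18 (11.2%) had every aged sample above every mAdu sample, against 4.49% of all valleys and tiles. In 7 (4.35%) every aged sample lay below, against 5.62%. Their windows averaged 4.50%, 4.50% and 4.45% in mAdu and 4.62%, 4.79% and 4.71% in aged, without overlap of the groups. The windows of the other valleys averaged 4.08%, 4.07% and 3.996% in mAdu and 4.10%, 4.15% and 4.23% in aged, also without overlap but closer together. Valleys with an endothelial gene were evenly split, 15 of 30 higher in aged. Since members were picked on these samples, no p is given for these averages.

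In comparable runs outside the valleys the sample averages of the groups overlapped, though window medians leaned the same way. The median window difference was 0.120 points in valleys, 0.110 in runs over Hox genes and 0.0333 in shorter runs. Shorter runs of 2 to 4 kb averaged 4.69%, 4.68% and 4.62% in mAdu and 4.63%, 4.73% and 4.70% in aged, a difference of 0.0192 points with overlapping groups. Runs over Hox genes averaged 5.34%, 5.18% and 5.33% in mAdu and 5.11%, 5.32% and 5.43% in aged, again with overlap. Among the valleys, those with an endothelial gene also overlapped, at 3.63%, 3.61% and 3.49% in mAdu and 3.31%, 3.61% and 3.89% in aged. Hox runs hold 184 windows and endothelial valleys 234, against 4326 in all valleys, so their averages are less precise. The difference between these kinds of run was not tested.

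**Figure D5:**
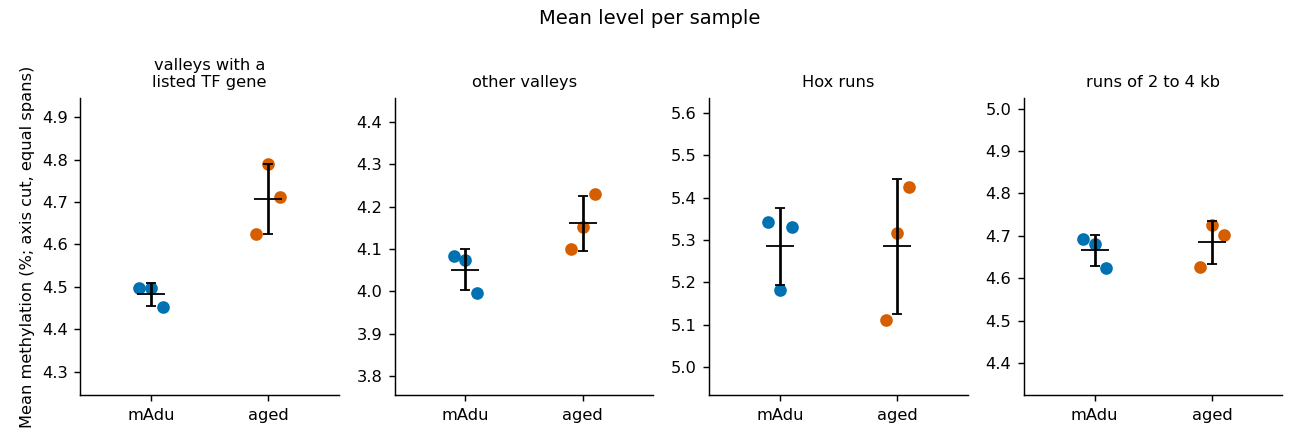
Mean methylation per sample (points; y axis in percent, each panel spanning 0.7 points and not starting at 0) in mAdu and aged, with the mean and SD of 3 samples in black. Panels show valleys with a transcription factor (TF) gene of the 17 families, other valleys, Hox runs and runs of 2 to 4 kb. The groups separate in the 2 left panels, by 0.225 and 0.109 points, and overlap in the others.

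Among single valleys, those with the smallest p in the upward direction are given as not passing. Onecut3, a neural homeobox gene, had a 5-kb valley at 5.005%, 4.98% and 4.88% in mAdu and 6.55%, 6.81% and 6.63% in aged. The groups were 1.71 points apart (SE 0.370) without overlap, at a limma adjusted p of 0.975. The valley in Arhgap31, a GTPase-activating gene, was at 1.71%, 1.03% and 1.72% and at 3.12%, 5.04% and 4.19%, also without overlap.

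Valleys of Vax1 (3.86% and 5.41%), Nr2e1 (4.20% and 5.44%) and Gpr146 (4.17% and 5.77%) followed in this direction, with group means of mAdu and aged in that order. Vax1 and Nr2e1 encode factors of the forebrain and eye, and Gpr146 an orphan receptor. The valley window with the smallest p was also in Vax1, the outermost of its valley (chromosome 19, 59173001 to 59174000). It was at 9.68%, 9.54% and 6.81% in mAdu and 16.8%, 17.8% and 17.4% in aged, a difference of 8.67 points (SE 1.16, limma adjusted p = 0.375).

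In the other direction the smallest p-values belonged to the valleys of Tfap2a (5.92% and 4.23%), Thbd (5.34% and 3.87%), Bcl9l (6.05% and 4.70%), Meis2 (3.57% and 2.43%) and Rin2 (9.08% and 7.77%), none of which passed (limma adjusted p = 0.975 for each). Thbd encodes thrombomodulin, the endothelial anticoagulant receptor. Its valley (chromosome 2, 148401001 to 148409000) was at 5.20%, 5.58% and 5.26% in mAdu and 4.66%, 3.78% and 3.18% in aged, without overlap.

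The median SD over the 6 samples was 0.587 points in valleys, where the limits of the rule keep the spread small. After the valley near Vmn1r135, the largest SDs were near Vmn1r163 (3.39 points), at Lhx9 (2.98), over a ribosomal RNA repeat on chromosome 17 (2.84) and in Clec1a (2.36). At Lhx9, a LIM homeobox gene, aged replicate 2 stood alone at 14.0%, with the other 5 samples between 6.01% and 9.10%.

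Runs were also sought in each sample alone. With a limit of 15% in a single sample and no use of the others, runs of 5 kb or more outside Hox genes numbered 786, 789 and 830 in mAdu and 791, 842 and 832 in aged. Their total lengths were 5715, 5596 and 6022 kb and 5743, 6163 and 6103 kb. The longest such runs were 58, 34 and 60 kb in mAdu and 36, 60 and 46 kb in aged. Each was longer than any of the 606 valleys, and windows of extreme values were not left out of these totals. The differences of 20 runs and of 225 kb were close to or below the SD within groups, 24.6 and 27.0 runs and 220 and 227 kb, and did not pass (exact two-sided permutation p = 0.2 for each, 0.2 after adjustment over the 2 comparisons, where 3 samples against 3 cannot go below 0.1). Of the 606 valleys, between 562 and 586 were overlapped by a run found in any single sample.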

How the data were processed

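Per the labels' protocols, 30 ng of DNA per sample went into tagmentation-based bisulfite libraries sequenced as 100 bp paired reads. BWA 0.7.8 and mm10 are named in the submitters' processing notes, and the CpG caller, coverage filter, smoothing and window averaging are, for this table, not given in the sources used here. As deposited, the fraction values are the authors' mean methylation levels of 1000 bp windows, per the file headers. They were multiplied by 100. Windows with all 6 values were used (1683697 of 1684140), and an absent window ended a run, 79.1% of windows having the adjoining window before them. Genes came from the RefSeq table of GRCm38.p6, and a gene was held when its span overlapped a valley.

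Windows, and valley means with tiles of 5 windows, were tested with limma 3.58.1 (R 4.3.3) fitted to percent values by group, with trended variances and a Benjamini-Hochberg limit of 0.05, after a check on simulated data. Deviations of same-numbered samples correlated between -0.0167 and -0.000645, so replicate numbers were not taken as pairs. The valleys and gene lists were chosen with earlier results of these data known. Named were the 15 longest valleys, the 5 longest without a protein-coding gene, up to 4 genes per list, valleys of endothelial genes, the 5 with the smallest p in each direction and the 5 with the largest SD, and runs at the limits. Some items are not reported here. Alternatives changed the limits, gaps, scale, trend, block and samples.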

Additional observations from a re-analysis of the deposited data

How the results depend on the processing

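The number of valleys was 453 with a mean limit of 10%, 737 with 20%, 610 without the limit on single samples, 790 when 1 window past the limits was bridged, and 598 without windows of extreme values (near 0% or 100%). Bridging 1 absent window, chosen after seeing the data, gave 610. Leaving out 1 sample at a time gave 604 to 614 valleys of 4340 to 4377 kb with 560 to 565 protein-coding genes and 47.7% to 48.7% of the transcription factor genes. That share was 40.1% at the 10% limit. Runs of 10 kb or more, fewer by construction, numbered 81 with 1129 kb, 80 protein-coding genes and 16.1% of the transcription factor genes. No valley passed with age on logits, with untrended variances, with a replicate block (0 valleys and 0 windows), with medians of windows, without windows of extreme values or without any 1 sample. At an unadjusted p under 0.05 the 24 valleys became 1 with untrended variances (0.165%, against 4.77% of all valleys and tiles), 3 with medians, 13 with the replicate block, 28 on logits, 11 when mAdu replicate 2 was left out, and 15 each when mAdu replicate 1 or aged replicate 2 was. Without mAdu replicate 1, mAdu replicate 3, aged replicate 2 or aged replicate 3, in that order, 789, 680, 756 and 831 of all 1683697 windows passed. Among valley and flank windows 0 to 3 passed without 1 sample (1 without mAdu replicate 1, 3 without mAdu replicate 3, 1 without aged replicate 2 and 2 without aged replicate 3), all flank windows except 1. Inside a valley this was a window of Tbx3 without aged replicate 3, at 23.4% and 24.98% in the other aged samples and 3.596% to 6.65% in mAdu, while aged replicate 3 was at 0.361%. Of all valleys and tiles, 44.1% (without aged replicate 3) to 50.6% (without aged replicate 2) had a higher mean in aged. The count of valleys higher in aged ranged from 335 (medians of windows) to 367 (without mAdu replicate 2) of 606, and was 355 without valleys of extreme values, a choice made after seeing the data. For transcription factor valleys it was 98 to 110 of 161. The differences in runs per sample, 20 runs and 225 kb, ranged from 9.83 to 35.3 runs and from 135 to 355 kb without 1 sample. Read coverage is unknown, so no limit from depth can be given.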

Other observations

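Valleys also lay over genes of endothelial signalling and of rapid transcriptional responses that are in none of the lists. These genes were chosen after their values were seen, and no count or test is drawn from them. In the BMP pathway, Smad7 and Smad6, the inhibitory Smads, had valleys of 14 kb (1.57%) and 9 kb (2.63%), and Bmpr2, the receptor mutated in heritable pulmonary arterial hypertension, had 5 kb at 1.17%. Nrp1, a VEGF and semaphorin co-receptor, had 7 kb (2.63%), its partner Plxnd1 6 kb (4.30%), Efnb2, an arterial ephrin, 6 kb (3.70%), and Tmem100, a BMP9-induced endothelial gene, 6 kb (3.56%). Piezo1, a mechanosensitive channel of vessels, had 5 kb at 6.33%.

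Some immediate early genes were also seen in this way, while others, among them Fos, Fosb, Egr1 and Egr2, overlapped no valley. Ier2 had a valley of 7 kb (1.30%), Dusp1, a MAP kinase phosphatase, 6 kb (1.82%), Jun 6 kb (2.38%), Junb 5 kb (2.83%), Zfp36, an mRNA decay factor, 5 kb (3.02%), Egr3 5 kb (3.34%) and the clock gene Per1 5 kb (1.78%). Cdkn2a, the senescence locus that encodes p16 and p19ARF, had a valley of 12 kb (chromosome 4, 89272001 to 89284000) at 7.28% in mAdu and 6.34% in aged, a difference of -0.941 points, and like the other valleys it did not pass. Cbx8, which encodes a Polycomb subunit, had a valley of 5 kb (4.06%).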
